A study of Mus musculus with 4 samples.

Results

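Genes that encode cargo receptors of selective autophagy, the ubiquitin-like proteins of the ATG8 family, and a pair of early autophagy factors were examined in J774 cells treated with proteasome inhibitors. They were chosen by name and comprised 10 genes out of 20144 with a named probe on the array. The receptors were *Sqstm1*, *Nbr1* and *Optn*, and the ATG8 family was represented by *Map1lc3a*, *Map1lc3b*, *Gabarap*, *Gabarapl1* and *Gabarapl2*. *Ulk1* and *Wipi1* represented the start of autophagosome formation. J774.1 is an established mouse line of the monocyte-macrophage type. Cells were cultured for 4 hours with MG132, epoxomicin or ONX0914, each at 1 μM, or with the solvent DMSO alone. MG132 is described as a proteasome inhibitor, epoxomicin as an inhibitor of the 20S proteasome and ONX0914 as an inhibitor of the β5 and β5i subunits. The array assigned to ONX0914 carries ONX-0912 as its treatment label, whereas its treatment protocol and the paper name ONX0914. It is called ONX0914 throughout, and the values do not show which compound was used. Each condition was represented by 1 sample and 1 array, and P values are therefore not given for any difference.

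Cells degrade proteins in the proteasome and in the lysosome, and autophagy carries cytoplasmic material to the lysosome. ULK1 is a kinase that starts autophagosome formation, and WIPI1 binds the phosphoinositide PI3P on the growing membrane. ATG8 proteins are then attached to a membrane lipid and hold the receptors p62 (encoded by *Sqstm1*), NBR1 and optineurin, which bring ubiquitin-coupled cargo. p62 protein is itself consumed by autophagy, and only RNA was measured here, so neither protein amount nor autophagic flux can be read from these values.

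The labelled cell type was checked against its markers. All 8 macrophage markers with a probe, among them *Csf1r*, *Itgam* and *Adgre1*, were well above background, a call of the scanner software that a spot clearly exceeds its local background, on all 4 arrays. Of 13 markers of other cell types, 3 (*Cd3e*, *Cd4* and *Col1a2*) were well above background on all arrays and 8 on none, including all 3 B cell markers. The summed signal of these 13 probes was between 4665 and 5462, and that of the macrophage markers between 203508 and 250141. Single genes carried most of both sums, with *Csf1r* at 210824 and *Cd4* at 4293 under DMSO. Of the macrophage markers, *Lyz2* (3756), *Spi1* (1081), *Adgre1* (440) and *Mertk* (50.9) were below *Cd4* under DMSO and the rest above it. The epithelial marker *Krt8* was not well above background under DMSO or ONX0914 and had a signal of 37.8 under MG132 and 121 under epoxomicin. Its part in any result below was not tested. Between 60.3% and 63.1% of spots were well above background, and no spot was saturated. All 12 probes of the 10 genes were well above background on every array, so no value of theirs is a bound.

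*Sqstm1* and *Gabarapl1*, which stood at least 2-fold above DMSO with every inhibitor, are shown first by the sequence before their start of transcription, followed by *Gabarapl2* and *Gabarap*, family members of *Gabarapl1* that stayed within 2-fold. RefSeq (GRCm38.p6) held such a window for 9 of the 10 genes. Each line gives the 250 bases before the annotated start, 5′ to 3′ on the strand of the gene. The *Sqstm1* window lies at chr11:50210821-50211070 on the minus strand. The windows of *Gabarapl1* (chr6:129532942-129533191), *Gabarapl2* (chr8:111940453-111940702) and *Gabarap* (chr11:69991120-69991369) lie on the plus strand. Capitals mark matches to GGGCGG, the GC box bound by Sp1 factors, or to TGANGTCA, a form of the cyclic AMP response element bound by CREB and ATF factors, each searched on both strands.

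Sqstm1: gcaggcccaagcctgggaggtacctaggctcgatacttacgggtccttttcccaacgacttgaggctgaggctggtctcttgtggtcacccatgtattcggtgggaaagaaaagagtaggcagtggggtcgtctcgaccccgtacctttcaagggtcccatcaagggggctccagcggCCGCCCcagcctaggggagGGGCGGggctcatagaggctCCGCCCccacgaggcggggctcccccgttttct

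Gabarapl1: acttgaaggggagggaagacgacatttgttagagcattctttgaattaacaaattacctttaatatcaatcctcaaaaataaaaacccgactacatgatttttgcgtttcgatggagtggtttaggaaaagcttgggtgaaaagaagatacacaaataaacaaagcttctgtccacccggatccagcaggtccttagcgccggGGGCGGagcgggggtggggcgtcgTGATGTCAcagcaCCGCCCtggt

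Gabarapl2: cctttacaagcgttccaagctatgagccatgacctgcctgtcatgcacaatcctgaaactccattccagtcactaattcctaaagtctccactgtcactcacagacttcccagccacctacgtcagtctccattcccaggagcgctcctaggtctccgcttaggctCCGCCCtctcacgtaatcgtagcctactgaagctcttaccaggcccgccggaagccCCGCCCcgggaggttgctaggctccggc

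Gabarap: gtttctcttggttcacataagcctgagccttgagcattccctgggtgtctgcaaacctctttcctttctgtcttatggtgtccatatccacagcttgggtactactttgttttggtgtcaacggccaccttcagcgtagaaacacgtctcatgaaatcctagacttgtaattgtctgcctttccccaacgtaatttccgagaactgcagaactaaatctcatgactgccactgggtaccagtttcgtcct

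The search covered these 250 bases and the 50 that follow the start. *Sqstm1* had 3 GC boxes before its start, *Gabarapl1* and *Gabarapl2* had 2 each, and the window of *Gabarap* had none. Of the genes not printed, *Wipi1* had 8 and *Ulk1* 5, more than *Sqstm1*, although neither reached 2-fold. *Map1lc3b* and *Optn* had 1 each before the start and *Nbr1* none. GC boxes were present in 8 of the 10 windows of these 9 genes and in 35.7% of all 32851 windows of the same length. The share of G and C in the 250 bases ran from 46.4% (*Gabarap*) to 69.6% (*Map1lc3b*), beside a median of 52.4% over all windows. *Gabarap*, *Gabarapl1* and *Optn* were below that median. The GC box holds only G and C, and the part of base composition was not tested. *Gabarapl1* was the only one of these 9 genes with a TGANGTCA match, TGATGTCA, which begins 23 bases before the start and is found in this form or another in 8.83% of all windows. That motif and the GC box were added after the sequences had been read. The antioxidant response element TGACNNNGC, the motif of Nrf2, was present in 12.4% of all windows and in that of *Map1lc3b*, where it lies after the start, but not in those of *Sqstm1* or *Gabarapl1*. The heat-shock element GAANNTTC, present in 7.86% of windows, was found for *Optn*, also after the start. The element TGATGNAA of C/EBP and ATF dimers (3.97% of windows) and the E-box CACGTG of TFEB and its relatives (7.15%) were found in the window of none of the 9 genes. No match overlapped one of another motif, and matches outside these windows were not searched for.

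Among the receptors, *Sqstm1* (NM_011018) was higher with every inhibitor. p62 binds ubiquitin chains and ATG8 proteins and also holds KEAP1, the negative regulator of Nrf2. Its probe had a processed signal, which is spot brightness after background subtraction, of 4801 under DMSO, 25594 under MG132, 24906 under epoxomicin and 18332 under ONX0914. All inhibitor arrays lay far above the DMSO array, and ONX0914 was the lowest of them. Signals were compared after the log2 was taken and the 75th percentile of the array was subtracted. On this scale *Sqstm1* differed from DMSO by 2.60 under MG132 (6.07-fold), 2.35 under epoxomicin (5.10-fold) and 1.97 under ONX0914 (3.92-fold). These differences ranked 113 of 13006 genes under MG132, 184 of 13041 under epoxomicin and 71 of 12995 under ONX0914, counted from the largest increase among genes well above background on both arrays. Thus *Sqstm1* ranked highest under ONX0914, where its difference was smallest. In RNA from whole cultures, a change in RNA per cell and a change in the share of cells that express a gene cannot be told apart. Of the 8 macrophage markers, 5 were below DMSO under MG132, 6 under epoxomicin and 3 under ONX0914, with medians of −0.13, −0.04 and 0.06. They ranged from −0.60 (*Lyz2*) to 1.04 (*Mertk*) under MG132, from −1.01 (*Lyz2*) to 0.65 (*Mertk*) under epoxomicin and from −0.29 (*Itgam*) to 0.54 (*Mertk*) under ONX0914, and their part in this result was not tested.

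The remaining receptors stayed close to DMSO. *Nbr1* (NM_008676), whose product resembles p62 in its ubiquitin and ATG8 binding, had signals of 461 under DMSO, 459 under MG132, 552 under epoxomicin and 534 under ONX0914. Its log2 differences were 0.18, 0.24 and 0.25 in the order MG132, epoxomicin and ONX0914. *Optn* (NM_181848) encodes optineurin, a receptor for damaged mitochondria and bacteria that is phosphorylated by TBK1. It was faint, with signals of 81.6 under DMSO, 87.3 under MG132, 109 under epoxomicin and 90.0 under ONX0914, and differed by 0.28, 0.39 and 0.18. The receptors chosen here therefore changed unequally, and further cargo receptors are described below. Within the same arrays, *Sqstm1* gained on *Nbr1* by 2.42 under MG132, 2.11 under epoxomicin and 1.72 under ONX0914 on the log2 scale, and on *Optn* by 2.32, 1.96 and 1.79, values that no constant shift of an array can change. Under quantile normalization, which is not a constant shift, they were 2.48 and 2.41 under MG132.

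**Figure D1:**
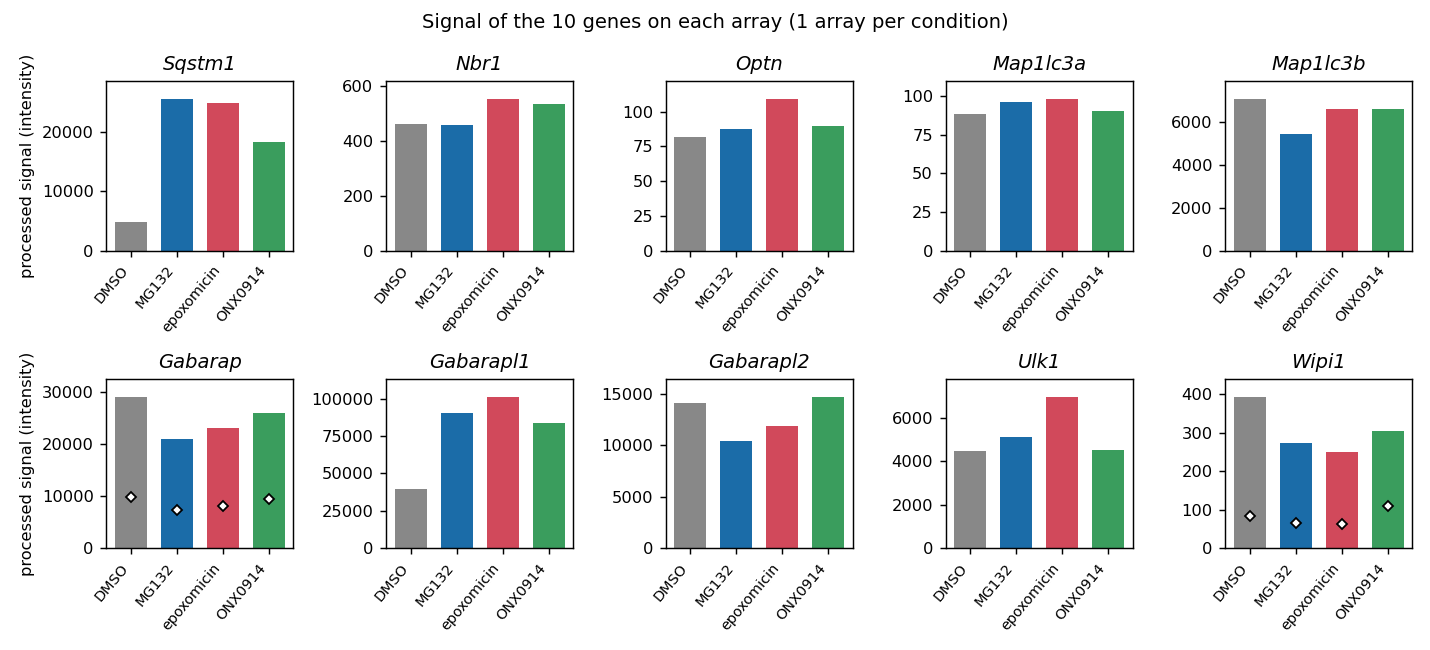
Processed signal (vertical axes, intensity, each starting at 0 and with its own scale) of the 10 genes on the DMSO, MG132, epoxomicin and ONX0914 arrays, with 1 array per bar and therefore no error bars. Open diamonds give the second probe of *Gabarap* and of *Wipi1*. *Sqstm1* and *Gabarapl1* stand well above DMSO with all inhibitors, while the bars of the remaining genes differ far less.

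Within the ATG8 family, *Gabarapl1* (NM_020590) was the only gene at least 2-fold from DMSO. Its signal was 39432 under DMSO, 90242 under MG132, 101164 under epoxomicin and 83863 under ONX0914. The inhibitor arrays were close to each other and all far above the DMSO array. Its log2 difference was 1.38 under MG132 (2.60-fold), 1.33 under epoxomicin (2.52-fold) and 1.13 under ONX0914 (2.18-fold), at ranks 443, 571 and 241.

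The other GABARAP genes were slightly below DMSO under MG132 and epoxomicin. *Gabarap* (NM_019749), the founding gene of this branch, had signals of 29043, 20886, 23023 and 25993 in the order DMSO, MG132, epoxomicin and ONX0914, and log2 differences of −0.29, −0.36 and −0.12. Its second probe gave −0.26, −0.31 and −0.04, so both probes gave values below 0 for every inhibitor. *Gabarapl2* (NM_026693), which encodes GATE-16, had signals of 14093, 10439, 11824 and 14690 and differences of −0.25, −0.28 and 0.10. With ONX0914 it was thus slightly above DMSO instead of below. None of these values reached 2-fold.

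The LC3 genes, whose lipid-coupled products are the usual markers of autophagosomes, also stayed within 2-fold. *Map1lc3b* (NM_026160) was printed on 10 spots of each array, which gives the only direct measure of technical spread among the 10 genes. The median spot was 7210 under DMSO (range 6489 to 7349), 5461 under MG132 (5048 to 5775), 6695 under epoxomicin (6300 to 7035) and 6603 under ONX0914 (5944 to 7043, from the 9 spots that remained after an outlier was left out). These signals are not scaled between arrays, and after scaling the spots of each inhibitor array overlapped those of the DMSO array in range. Under MG132 the overlap was narrow, with scaled log2 values of 1.80 to 1.99 beside 1.97 to 2.15 under DMSO. On the scaled log2 values, *Map1lc3b* differed from DMSO by −0.19, −0.12 and −0.06, while the SD between its spots was 0.053 to 0.076 on the log2 scale. That SD covers printing and reading of 1 RNA sample only. *Map1lc3a* (NM_025735) was faint, with signals of 88.1, 96.1, 97.9 and 90.4 and differences of 0.31, 0.13 and 0.07.

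Set against its family on the same array, *Gabarapl1* gained 1.67 on *Gabarap*, 1.63 on *Gabarapl2*, 1.57 on *Map1lc3b* and 1.07 on *Map1lc3a* under MG132. The same gains were 1.69, 1.61, 1.45 and 1.21 under epoxomicin and 1.25, 1.03, 1.19 and 1.05 under ONX0914. These gains were at least 2-fold on every other member of the family. Under ONX0914 this was lost for *Map1lc3a* with normexp background correction (0.93) and for *Gabarapl2* with quantile normalization (0.99). *Sqstm1* in turn gained 1.22 on *Gabarapl1* under MG132, 1.02 under epoxomicin and 0.84 under ONX0914.

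Of the early factors, *Ulk1* (NM_009469) had signals of 4481 under DMSO, 5113 under MG132, 6979 under epoxomicin and 4513 under ONX0914. Its log2 differences were 0.38, 0.61 and 0.05, with the epoxomicin array highest and the ONX0914 array next to DMSO. *Wipi1* (NM_145940) had signals of 394, 274, 249 and 305 and differences of −0.33, −0.68 and −0.33. Its fainter second probe gave −0.15 and −0.46 under MG132 and epoxomicin but 0.43 under ONX0914, so the probes disagreed in sign for that inhibitor.

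In all, 2 of the 10 genes, *Sqstm1* and *Gabarapl1*, were at least 2-fold higher with each inhibitor, and none was at least 2-fold lower. Among all genes detected above background on 1 or both arrays of a comparison, 7.13% were at least 2-fold higher and 3.60% lower under MG132. The shares were 8.31% and 4.43% under epoxomicin and 3.23% and 1.39% under ONX0914. The median difference of the 10 genes was 0.23 under MG132, 0.18 under epoxomicin and 0.09 under ONX0914, beside medians of −0.02, −0.04 and −0.01 over all genes. All 3 comparisons share the DMSO array, so a deviation of that array would enter each of them. With normexp background correction the shares of all genes were 4.30% and 2.02% under MG132, 4.95% and 2.69% under epoxomicin and 1.53% and 0.529% under ONX0914, while the counts of the 10 genes were the same. Normexp adds an offset of 50 to each signal here, which by itself makes differences of faint genes smaller. With only 10 genes the share of higher genes is coarse and is given as a description.

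**Figure D2:**
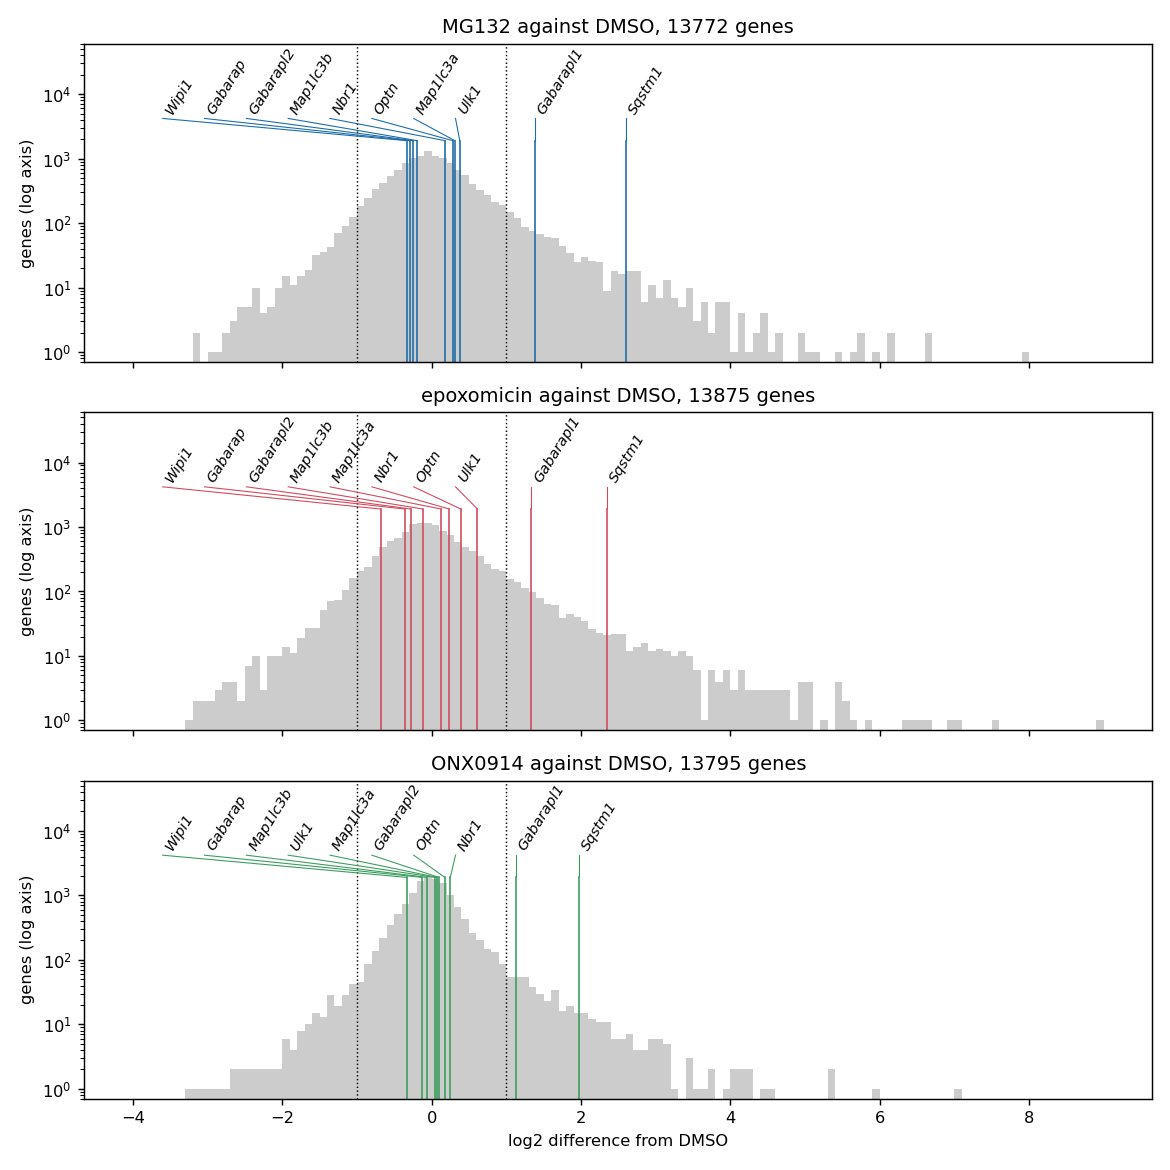
Histograms of the log2 difference from DMSO (horizontal axis) over the genes compared, with the number of genes on a log axis and 1 panel per inhibitor. A gene not well above background on 1 array is placed at its bound, or left out where the bound has the wrong sign. Colored lines mark the 10 genes and dotted lines a 2-fold difference. *Sqstm1* and *Gabarapl1* lie in the right tail of each panel and the remaining 8 genes within the 2-fold lines.

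The inhibitors were also set against each other at the same dose and time, which does not involve the DMSO array. None of the 10 genes differed by 2-fold or more between any pair of inhibitors. Over all genes, 0.785% were at least 2-fold higher and 0.719% lower under epoxomicin than under MG132. With ONX0914, 1.07% were higher and 3.05% lower than under MG132, and 1.56% were higher and 4.38% lower than under epoxomicin. The largest log2 difference between epoxomicin and MG132 was the −0.35 of *Wipi1*. *Sqstm1* differed by −0.63 between ONX0914 and MG132 and by −0.38 between ONX0914 and epoxomicin. *Ulk1* differed by −0.57 between ONX0914 and epoxomicin, and *Gabarapl1* by −0.26 between ONX0914 and MG132, its largest difference in any pair. The second probe of *Wipi1* differed by 0.88 between ONX0914 and epoxomicin, the first by 0.35. In contrast, *Gabarapl2* was higher under ONX0914, by 0.34 relative to MG132 and 0.37 relative to epoxomicin. How far separate cultures of 1 inhibitor would differ was not measured.

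The genes with the pattern most like *Sqstm1* were sought among 12729 others that were well above background on all arrays, by the Euclidean distance over the 3 log2 differences from DMSO. The nearest was *Bbc3*, which encodes the BH3-only protein PUMA, at a distance of 0.33 with differences of 2.45, 2.39 and 1.69. *Tent5c*, for a poly(A) polymerase, followed at 0.34 with differences of 2.57, 2.61 and 1.75. *Ifi213* (0.38) and *Epha2*, for an ephrin receptor (0.39), were also among the nearest 5. *Ifi213* was faint, with a signal of 23.5 under DMSO, where the lowest signal well above background was 14.7. Because all 3 differences share 1 control array, this likeness is a description only.

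The rest of the autophagy pathway was covered by 82 further genes listed by their step, of which 81 could be compared. At least 2-fold higher were 2 of 81 under MG132, 4 under epoxomicin and none under ONX0914, and at least 2-fold lower were 1, 1 and none. These shares lie below those of all genes given above. The median difference of the 81 genes was −0.01 under MG132, −0.03 under epoxomicin and 0.05 under ONX0914. No gene of this list was at least 2-fold from DMSO with all inhibitors.

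The genes past the threshold belonged to few steps. *Atg14*, the subunit that directs the class III PI3-kinase to autophagosome formation, had signals of 1009 under DMSO, 2178 under MG132, 2820 under epoxomicin and 1698 under ONX0914. It differed by 1.30, 1.46 and 0.79 and had the largest difference of its complex under MG132. *Atg12*, a ubiquitin-like protein of the conjugation machinery that attaches ATG8 to lipid, had signals of 3890, 7305, 9557 and 6176 and was 2.14-fold, 2.41-fold and 1.63-fold above DMSO. Its second probe gave smaller log2 differences of 0.78, 0.66 and 0.39, and the mean of both probes was below 2-fold under MG132 and epoxomicin (0.96). Under MG132 the call of *Atg12* was also lost with a shift to the median or no scaling. With epoxomicin, *Nrbf2*, another subunit of the PI3-kinase complex (2.05-fold), and the lipid transfer protein gene *Atg2a* (2.14-fold) passed as well, *Nrbf2* not with a shift to the median (0.97). On the log2 scale *Atg2a* differed by 0.97 under MG132 but by 0.04 under ONX0914. All of these were higher than DMSO under MG132 and epoxomicin on every probe measured.

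Fewer genes were lower. *Neu1*, for a lysosomal sialidase, had signals of 26994 under DMSO, 11339 under MG132, 14280 under epoxomicin and 18048 under ONX0914 and differed by −1.06, −0.94 and −0.54. It was the only one of 14 lysosomal genes past the threshold under MG132. *Zfyve1* was lower under epoxomicin alone (−1.44), at a faint signal of 60.0 compared with 160 under DMSO. It was −0.82 with normexp background correction, below 2-fold, but the offset of 50 in that setting by itself makes faint differences smaller. A shift to the median placed *Neu1* at −1.01 under epoxomicin, past the threshold. *Nrbf2* and *Zfyve1* were named after their values had been seen. The largest differences under MG132 in the remaining steps were those of *Ulk2* (−0.78), the ER receptor gene *Ccpg1* (−0.63), *Mitf* (0.60), the SNARE gene *Vamp8* (−0.54) and *Tbk1* (−0.22), all below 2-fold.

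Receptors for single organelles, grouped after their values had been seen, stayed within 2-fold on the probe that stood for each gene. A fainter probe of *Bnip3* was past it under MG132 (−1.05). Over all genes, 51.3% were below DMSO under MG132, 53.0% under epoxomicin and 50.5% under ONX0914. Of 5 mitochondrial receptor genes (*Bnip3*, *Bnip3l*, *Fundc1*, *Fkbp8* and *Bcl2l13*), 4 were below DMSO under each inhibitor, but not the same 4. The gene above DMSO was *Bcl2l13* under MG132 (0.30) and epoxomicin (0.22) and *Fkbp8* under ONX0914 (0.12), where *Bcl2l13* was at only −0.01. The differences lay between −0.57 and 0.30 under MG132. Of 5 receptor genes of the endoplasmic reticulum (*Retreg1*, *Tex264*, *Ccpg1*, *Sec62* and *Rtn3*), 4 were below DMSO under MG132 and epoxomicin and 3 under ONX0914, between −0.63 and 0.27 under MG132. By median difference under MG132, the steps ranged from 0.42 for membrane supply and PI3P effectors, where 8 of 9 genes were above 0 beside 47.2% of all genes, to −0.28 for the other cargo receptors, where 9 of 16 were below 0, a share near that of all genes. Highest of the other cargo receptors with each inhibitor was *Tax1bp1*, at 0.60 under MG132, 0.67 under epoxomicin and 0.59 under ONX0914, below 2-fold. It was named after its values had been seen. A fainter probe of *Wipi2* was 2-fold higher under MG132 (1.06), and it and that of *Bnip3* were picked out after their values had been seen.

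**Figure D3:**
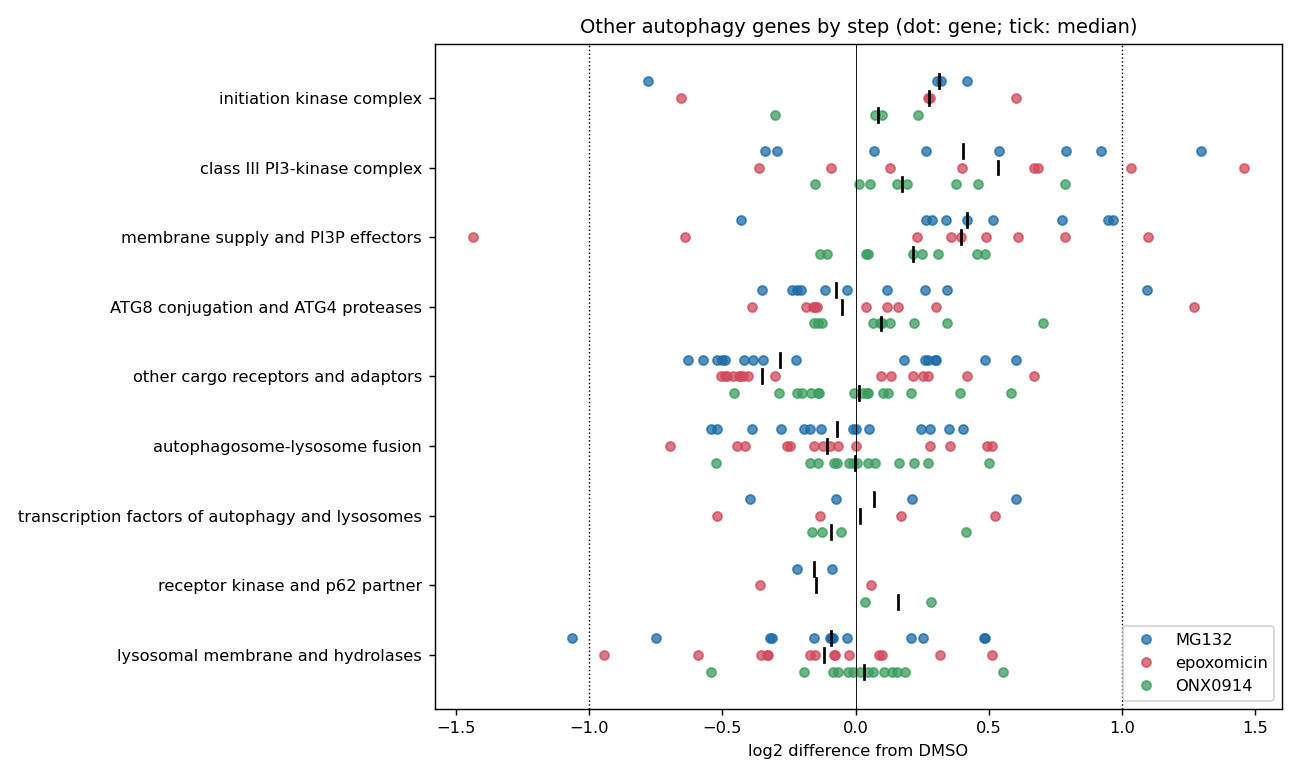
Log2 difference from DMSO (horizontal axis) of 81 further autophagy genes, grouped by step (vertical axis), with 1 dot per gene and inhibitor, black ticks at the medians and dotted lines at 2-fold. Most dots lie within the 2-fold lines, and those beyond them are *Atg14*, *Atg12*, *Nrbf2* and *Atg2a* above and *Neu1* and *Zfyve1* below.

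The main values held under other ways of processing. Over 9 other settings *Sqstm1* lay between 2.41 and 2.61 under MG132, between 2.28 and 2.38 under epoxomicin and between 1.92 and 1.97 under ONX0914. *Gabarapl1* lay between 1.19 and 1.38, between 1.27 and 1.37, and between 1.08 and 1.13, so that both genes were at least 2-fold higher in each of these settings. Both have a single probe and no bound, so the mean over probes and the signal in place of the bound returned the reported value. Of the others, all but normexp and quantile normalization differed from it only by a constant per array. Normexp and quantile normalization gave, in that order, 2.61 and 2.59 for *Sqstm1* and 1.35 and 1.36 for *Gabarapl1* under MG132. Under ONX0914 both gave 1.94 for *Sqstm1* and 1.09 for *Gabarapl1*. The sign of small differences was less secure. *Nbr1* under MG132 was −0.01 with no scaling between arrays, *Map1lc3a* under epoxomicin was −0.07 under normexp background correction, and *Wipi1* under ONX0914 was 0.05 as the mean of its probes.

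**Figure D4:**
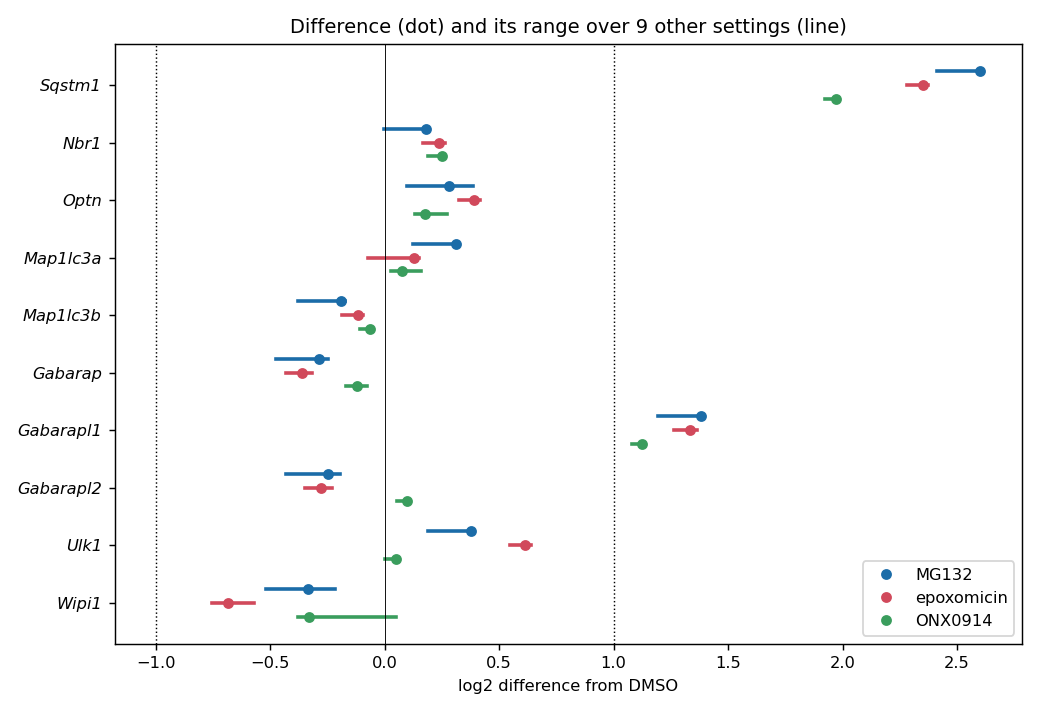
Log2 difference from DMSO (horizontal axis) of the 10 genes as reported (dot) and its range over 9 other settings of scaling, background correction and probe choice (line), per inhibitor, with dotted lines at 2-fold. The lines of *Sqstm1* and *Gabarapl1* stay to the right of the 2-fold line, and those of the remaining genes stay within it.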

How the data were processed

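RNA of J774 cells was measured on 4 single-color (Cy3) arrays, all on 1 slide. The Methods name a human array design, and the file headers describe a mouse design. The authors deposited the intensity of each spot as read by Feature Extraction 10.7.1.1, the background being subtracted within the array and no scaling between arrays. The authors also deposited log2 values made with GeneSpring, relative to each probe's median over the arrays. These matched the scaled signals with a Pearson correlation of at least 0.99968 on every array across 22417 probes, which fixes their direction. A correlation does not depend on scale. The gain of *Sqstm1* on *Nbr1* under MG132 was 2.42 on the log2 scale from both sets of values. The medians of these log2 columns were −0.05 (DMSO), 0.02 (MG132), −0.02 (epoxomicin) and 0.01 (ONX0914), and the exact GeneSpring settings stay unknown.

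Control spots and between 159 and 194 outlier spots per array were left out, log2 was taken, and the 75th percentile over spots was subtracted. Spots of a probe were averaged. Of 39429 probes, 26581 (67.4%) were named through their transcript accession in the RefSeq table of GRCm38.p6. The probe with the highest mean stood for a gene. A gene was compared when well above background on at least 1 array of the pair, with a bound for the dimmer side, and counted as higher or lower at 2-fold (1 on the log2 scale). A bound of the wrong sign gave no difference, and such a gene stayed in the total behind each share. A difference counted as moved if a setting shifted it by 0.0867 or more, the spot SD of 0.0613 times the square root of 2. Named were all 10 genes, further autophagy genes past 2-fold with every inhibitor or with the largest difference of their step with MG132, and the 5 genes nearest to the one that changed most, of which 1 is not reported here. The genes, lists, motifs and settings were chosen with earlier results of these data known. The calculations were run on simulated data with planted changes beyond 2-fold and little noise, scaled by the 75th percentile over probes. That run checked the code only and gives no measure of how precise the reported values are. limma 3.58.1 in R 4.3.3 served for normexp, and Python 3.11.15 with numpy 2.4.6, pandas 2.3.3 and matplotlib 3.10.9 for all else. The number of arrays limits the precision.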

Additional observations from a re-analysis of the deposited data

How the results depend on the processing

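With 1 array per condition there is no replicate to leave out, and no paired analysis was possible because no group has a second array. The counts of the 10 genes at least 2-fold higher (2 with each inhibitor) and lower (none) were the same under all settings of scaling, background correction and probe choice. They changed only with the threshold: at 4-fold, 1 gene was higher under MG132, 1 under epoxomicin and 0 under ONX0914, and at 1.5-fold, under epoxomicin, 3 genes were higher (*Ulk1* in addition) and 1 (*Wipi1*) was lower. Of the other autophagy genes, 1 in place of 2 was higher under MG132 under a shift to the median and with no scaling. With epoxomicin, 0 in place of 1 was lower under normexp and 2 under a shift to the median, and 3 in place of 4 were higher under a shift to the median and with the mean over a gene's probes. At 4-fold, 0 were higher or lower under MG132 or epoxomicin. At 1.5-fold, 9 were higher and 4 lower under MG132, 10 higher and 6 lower under epoxomicin, and 3 higher under ONX0914. Of 270 recomputed differences of the 10 genes, 239 moved by less than the limit of 0.0867 and 31 by that much or more. Of these 31, 10 were under a shift to the median and 10 with no scaling, in each case all 10 genes under MG132. Those settings, the authors' values and the other 75th percentiles shift all genes of an array by the same constant. Their outcomes are therefore not separate for each gene. The mean over probes could move only *Gabarap* and *Wipi1*, the genes with a second probe. The 239 include 30 with the signal in place of the bound, which could not move because no value of these genes is a bound. None of the differences of 2-fold or more changed sign. With no scaling the median of all genes shifted to −0.20 under MG132, and under a shift to the median to −0.12. The share of higher genes among all those past 2-fold under MG132 was then 45.0% and 54.8%, compared with 66.5%. Under normexp 602 genes were higher and 283 lower under MG132 (998 and 503 as reported), 696 and 378 under epoxomicin (1167 and 623), and 214 and 74 under ONX0914 (451 and 194). Normexp was run with an offset of 50 on the median pixel brightness of each spot, and the mean was not used here. The setting with the 75th percentile over probes was chosen after seeing the data. *Optn* and *Map1lc3a* had signals of about 100, so small changes of theirs are the least certain.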
